A study of Mus musculus with 16 samples.

Results

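Fetal maturation of the mouse epididymis was followed by setting 3 arrays of whole epididymis at gestational day 18 (gd18) against 3 arrays at gestational day 14 (gd14). The members were chosen by the stage in the sample titles, which gave 6 of the 16 arrays of the series, and 3 arrays at gestational day 16 (gd16) served to place a change early or late in the span. All 9 arrays held RNA of wild-type CD-1 males, an outbred mouse stock, with no treatment. The labels place gd18 at Theiler stage 26, gd16 at stage 24 and gd14 at stage 22. The organs were excised whole and snap frozen, and the RNA went through 2 rounds of amplification before hybridisation to Affymetrix expression arrays. The sources differ on pooling. The sample labels give the gd14 samples as pools of 3 and the gd18 and gd16 samples as not pooled, while the design text of the series describes each sample as the paired organs of 1 animal, each from another dam. Pooling and stage therefore cannot be told apart.

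The epididymis is the long coiled duct in which sperm mature after leaving the testis. It forms from the Wolffian duct, a mesonephric tube that testicular androgen preserves in male fetuses, and during late fetal life the duct elongates and coils while the mesenchyme around it forms smooth muscle and connective tissue. Signals between the epithelium and the mesenchyme, among them Wnt, BMP, FGF, IGF and Hedgehog ligands, shape this growth. The Müllerian duct, the female counterpart, regresses in males under anti-Müllerian hormone, and the secretory proteins of the adult epididymis are mostly made after birth.

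Between gd14 and gd18, 1397 of 11441 tested genes changed at a Benjamini-Hochberg adjusted p under 0.05 in a limma fit with 1 mean per stage, which is 12.2% of the genes tested. Of these, 841 were higher at gd18 (7.35%) and 556 were lower (4.86%). These shares are the background for every count of list members given below. Without gd14 replicate 10 the fit called 928 genes, 290 of them lower, without replicate 11 it called 882, 273 of them lower, and without replicate 12 it called 979, 325 of them lower. Changes of at least 2-fold were found in 459 called genes (4.01%), 324 higher and 135 lower. All 3 gd18 arrays lay above all 3 gd14 arrays in 16.4% of tested genes and below them in 16.7%, so separation of the groups alone was common. Values are Affymetrix signals on a linear scale, fold changes are log2 differences of signal + 16 given as gd18 minus gd14 with a standard error (SE) from the model, and each stage has n = 3 arrays. The median log2 change of all tested genes was -0.02. In a principal component analysis the component with 37.45% of the variance ordered the arrays by stage, and the next, with 13.6%, set the 3 gd16 arrays apart from both other stages. In whole organs, fewer cells of a type and less RNA per cell cannot be told apart.

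Each array correlated with its stage mates at 0.968 to 0.978, and the ratios of 3' to 5' control signal were 5.01 to 6.53 for Gapdh and 2.40 to 3.15 for Actb. Of the genes that define the duct, Emx2, a transcription factor needed for the Wolffian duct, had 1424, 1733 and 1574 at gd18 against 1582, 1582 and 1455 at gd14. The epithelial keratin Krt8 had 3742, 3524 and 3707 at gd18 against 3744, 3478 and 3175 at gd14. The levels of both overlapped between stages. The androgen receptor gene was not analysed here, and Trp63, a marker of basal cells, did not pass the filter on low signals, with no value above 75.3 on the 9 arrays. Genes typical of the adult epididymis (Lcn5, Lcn8, Gpx5 and Adam7) also did not pass the filter, with highest signals of 55.2, 92.7, 75.0 and 88.9. Steroidogenic testis markers stood out on 2 arrays. Cyp17a1, an enzyme of androgen synthesis made by fetal Leydig cells, had 949, 302 and 218 at gd14, 23.3, 8.5 and 2211 at gd16 and 55.9, 21.7 and 19.9 at gd18, so replicate 9 of gd16 and replicate 10 of gd14 were high among their stage mates. Without these 2 arrays, 877 genes changed, 620 higher and 257 lower.

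The largest rise among the genes that met the naming rule was in Lcn2, which encodes a secreted lipocalin that binds iron-carrying siderophores. Its signals were 2066, 1962 and 2347 at gd18 against 48.6, 8.1 and 37.6 at gd14. All gd18 arrays were high and all gd14 arrays dim, with a log2 change of 5.61 ± 0.38 (SE, adjusted p = 1.6e-06), or 48.9-fold on the signal + 16 scale. Sult1e1, the oestrogen sulphotransferase that inactivates oestrogens, had 928, 292 and 726 at gd18 against 17.3, 6.81 and 3.95 at gd14. Its groups were far apart although the gd18 arrays varied among themselves, and the log2 change was 4.60 ± 0.63 (SE, adjusted p = 0.00043). Myh11, the myosin heavy chain of smooth muscle, had 871, 1395 and 1003 at gd18 against 9.25, 81.2 and 95.7 at gd14 and a change of 4.06 ± 0.53 (SE, adjusted p = 0.00029). Pdlim3, a muscle protein that binds alpha-actinin, had 3659, 3753 and 3569 at gd18 against 215, 224 and 275 at gd14. The 3 values within each stage lay close together, and the change was 3.86 ± 0.16 (SE, adjusted p = 4.0e-08). Defb29, a beta-defensin, had 585, 1110.5 and 868 at gd18 against 55.9, 71.2 and 16 at gd14, with a change of 3.85 ± 0.38 (SE, adjusted p = 3.4e-05).

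The other named rises included matrix, enzyme and epithelial genes. Dpt (dermatopontin, a matrix protein that binds collagen fibrils) had 2923, 1698 and 2016 at gd18 against 155, 125 and 199.5 at gd14, a log2 change of 3.65. Aspn (asporin, a small leucine-rich proteoglycan) had 2186, 2174 and 2091 at gd18 against 199, 179 and 169 at gd14, a change of 3.45. Both were separated by stage on all arrays. Maob, a mitochondrial amine oxidase, had 2230.4, 2898 and 3616 at gd18 against 295, 219 and 239.9 at gd14, a change of 3.44 ± 0.19 (SE, adjusted p = 2.1e-07). Eppk1 (epiplakin, a linker of intermediate filaments in epithelia) changed by 3.33 and Cp (ceruloplasmin, a copper-carrying ferroxidase) by 3.31. The means of all 8 Cp probe sets were higher at gd18, by 0.69 to 3.36. Klf15, a transcription factor induced by glucocorticoids, changed by 3.10, Angpt4, a ligand of the Tie2 receptor, by 3.10 and Cnn1, the smooth muscle calponin, by 3.11. A probe set of Angpt4 that failed the filter was at 0.34. Tmem200c, which encodes a transmembrane protein, changed by 3.23. It passed the filter on low signals on gd18 arrays alone and was not tested with a gd18 array left out. Rasd2, a small GTPase, changed by 3.49 in its brightest probe set, but another probe set that is specific by its name gave 1.31 (adjusted p = 0.25 where it was used in place of the first). The adjusted p of the 15 named rises was at most 0.0035.

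**Figure D1:**
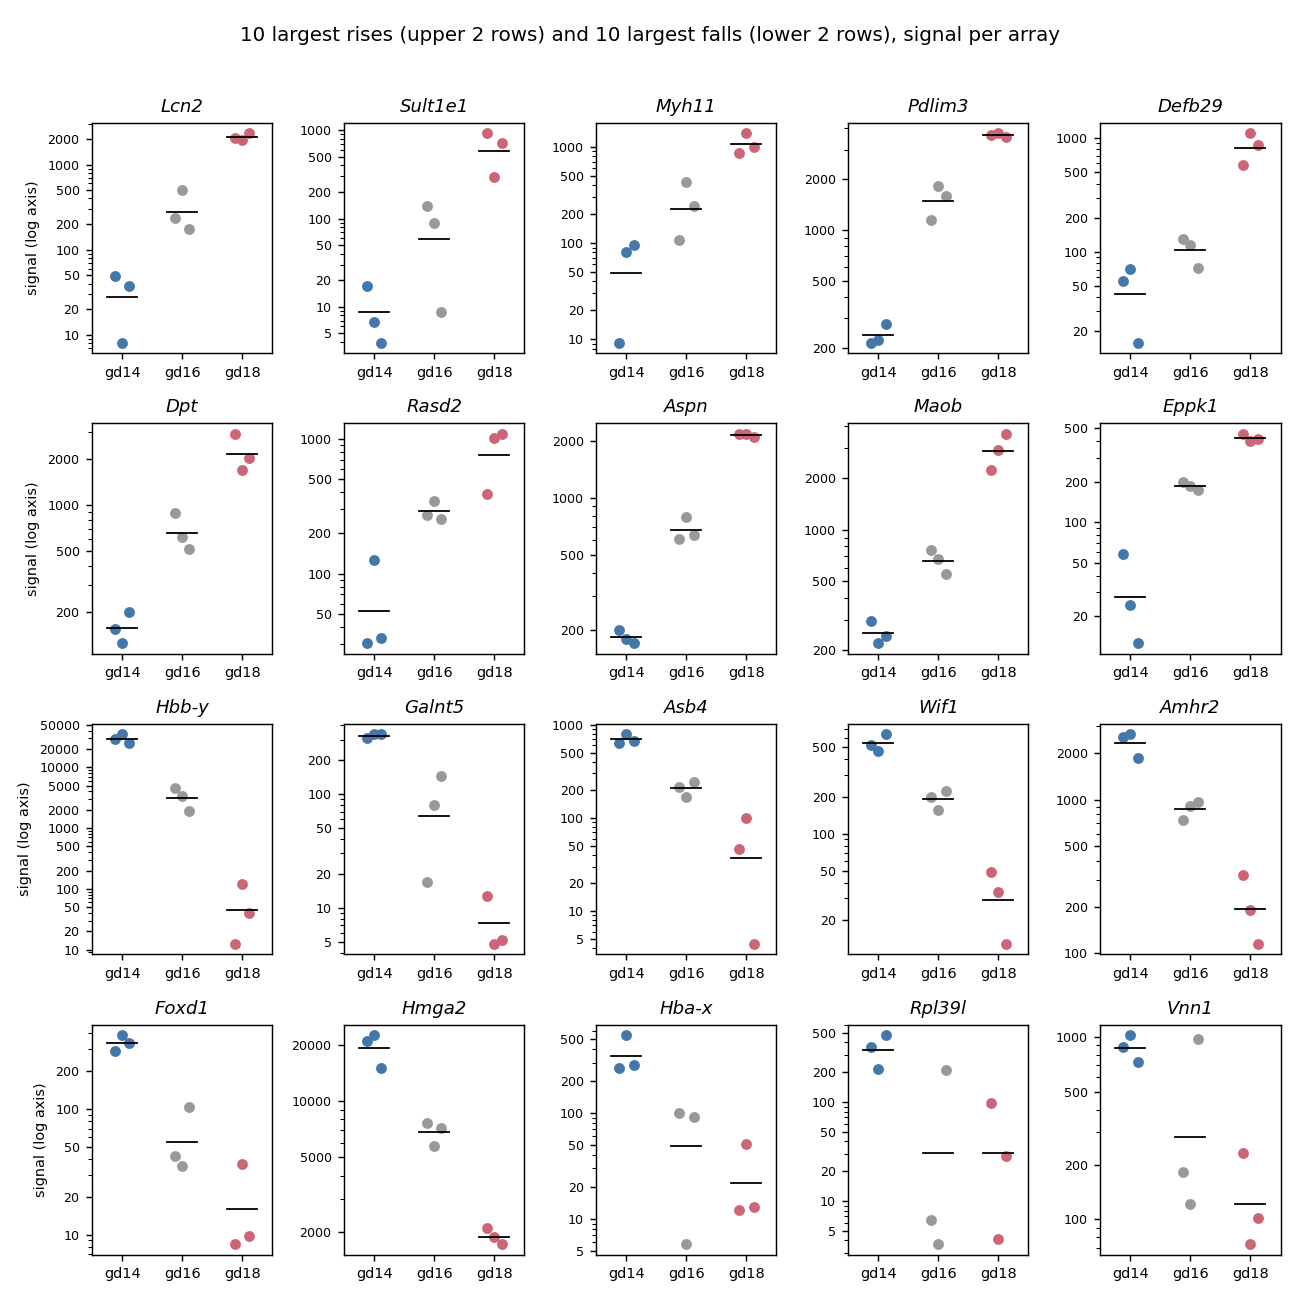
Signal per array (log axis) at gd14, gd16 and gd18 for the 10 named genes with the largest rise (upper 2 rows) and the 10 with the largest fall (lower 2 rows). Each point is 1 array, 3 per stage, and the line is the mean on the log2(signal + 16) scale. The gd18 points lie clear of the gd14 points in every panel, and the gd16 mean lies between the other means in all panels but that of Rpl39l.

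The embryonic globins, the fetal chromatin gene Hmga2 and the Müllerian receptor gene Amhr2 were among the largest falls. Hbb-y, the embryonic epsilon-y globin, had 12.5, 121 and 40.1 at gd18 against 28811, 34835 and 25264 at gd14. No array of gd18 came near any array of gd14, and the log2 change was -8.93 ± 0.44 (SE, adjusted p = 1.0e-07). The other 2 probe sets of Hbb-y were at -9.19 and -7.59. Probe sets of globin genes can bind near-identical copies, so the split among copies is uncertain. Hba-x and Hbb-bh1, the other embryonic globins tested, changed by -3.26 and -2.51. Hmga2, a chromatin protein of proliferating fetal cells, had 2089, 1884 and 1717 at gd18 against 20977, 22485 and 14909 at gd14. It was still bright at gd18 but far below every gd14 array, with a change of -3.33 ± 0.15 (SE, adjusted p = 6.5e-08). Amhr2, the receptor for anti-Müllerian hormone, had 324, 192 and 116 at gd18 against 2540.5, 2652 and 1873 at gd14, a change of -3.48 ± 0.27 (SE, adjusted p = 5.5e-06), and its other 2 probe sets were at -2.80 and -2.33.

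Several signalling and patterning genes fell with them. Wif1, a secreted inhibitor of Wnt ligands, had 48.7, 33.9 and 12.9 at gd18 against 523, 471 and 638 at gd14, a change of -3.62 ± 0.31 (SE, adjusted p = 1.0e-05). Asb4, a substrate adaptor of a ubiquitin ligase, had 46.6, 99.8 and 4.44 at gd18 against 641, 789 and 673 at gd14. Galnt5, which starts mucin-type glycosylation, had 12.7, 4.83 and 5.16 at gd18 against 308, 334 and 333 at gd14. Their log2 changes were -3.75 and -3.87, and the gd18 arrays were dim for both. Foxd1, a stromal transcription factor of the fetal kidney, had 8.38, 36.7 and 9.78 at gd18 against 292, 389 and 337 at gd14 and a change of -3.46 ± 0.45 (SE, adjusted p = 0.00030). Rbfox3, a neuronal splicing factor, changed by -2.46 and Ankrd63 by -2.46. Dim probe sets of Rbfox3 that failed the filter were at 0.18 and -0.18. Vnn1, a pantetheinase, had 880.5, 1026 and 729.8 at gd14, 181, 122 and 979 at gd16 and 233, 73 and 101 at gd18. Its gd16 replicate 9, the array with high testis markers, was as bright as the gd14 arrays, and the change from gd14 to gd18 was -2.69 ± 0.58 (SE, adjusted p = 0.0089). Dppa4 and Ddx4, genes of pluripotent and germ cells, changed by -2.50 and -2.50. Rpl39l, a ribosomal protein gene whose copy Rpl39 may share its probes, changed by -2.90 ± 0.85 (SE, adjusted p = 0.044) and lost its call under 10 of 23 alternatives that gave it a value. Ddx4 lost its call without gd18 replicate 5 or replicate 6, and Ankrd63 without gd18 replicate 4 or replicate 5. Foxd1, Dppa4, Ddx4 and Ankrd63 passed the filter on low signals on gd14 arrays alone. They were not tested with a gd14 array left out.

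Some markers of other cells were themselves among the falling genes. Of 8 tested erythroid markers 4 fell, the 3 embryonic globins above and Slc4a1, the red cell anion exchanger, which had 73.5, 119 and 35 at gd18 against 407, 218 and 253 at gd14. Alas2, Hbb-b2, Tfrc and Klf1 were not called, with changes of 0.64, 0.08, 0.04 and 0.03. Of these 8 genes Hba-x and Hbb-bh1 passed the filter on gd14 arrays alone, so nothing is read from the count. The summed erythroid signal was 3630.0 to 5113 at gd18 and 29722 to 39338 at gd14, and Hbb-y made up 85.0% to 88.6% of it at gd14. Without Hbb-y the other 7 genes summed to 3582 to 5101 at gd18 and 3962 to 4504 at gd14, which overlap. Of 6 tested germ cell markers 3 fell: Dppa5a had 89.9, 122 and 73.2 at gd18 against 378, 398 and 645 at gd14, Dazl changed by -2.46 and Ddx4 by -2.50. Mael, Dppa3 and Kit were not called, at -2.41, -0.81 and 0.20. The summed germ cell signal was 595 to 958 at gd18 and 1458 to 1989 at gd14. Of the 6 genes 4, the 3 that fell among them, passed the filter on gd14 arrays alone, so nothing is read from this count or sum. With a gd14 array left out, these 4 genes and Hba-x and Hbb-bh1 no longer reached the filter and were not tested. The number of germ cell markers that fell was 0 to 3 with any array left out.

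Steroidogenic testis markers were not called in any of 5 tested genes, with a median of -1.15 and a change of -3.17 ± 1.26 (SE, adjusted p = 0.12) for Cyp17a1. Their summed signal, 7861 to 8939 at gd18 and 6727 to 9462 at gd14, was mostly that of Fdx1, which many tissues express. Of 8 Sertoli and supporting cell markers, Fgf9 fell (-0.75) and Inhbb rose (1.20), and Amh, a defining marker, did not pass the filter. The count that rose was 0 without gd18 replicate 4 or 6 or gd14 replicate 11 or 12 and 2 without gd18 replicate 5, and the count that fell was 0 without gd18 replicate 6 and 2 without gd18 replicate 4. The summed signal of these 8 was 1572 to 2525 at gd18 and 2685 to 2844 at gd14. The shares over all tested genes were 7.35% higher and 4.86% lower. Macrophage and leukocyte markers fell in 3 of 20 genes, led by Ptprc, the pan-leukocyte antigen CD45, which had 286, 212 and 268 at gd18 against 533, 420.3 and 596 at gd14 and a change of -0.97 ± 0.19 (SE, adjusted p = 0.0050). The count was 1 without gd18 replicate 4 or 6 or any single gd14 array. Endothelial markers rose in 1 of 15 genes, the VEGF receptor Flt1 at 0.63, near the share over all genes, and in 0 without gd14 replicate 10 or 12. The part of these cells in the falls described above was not tested.

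**Figure D2:**
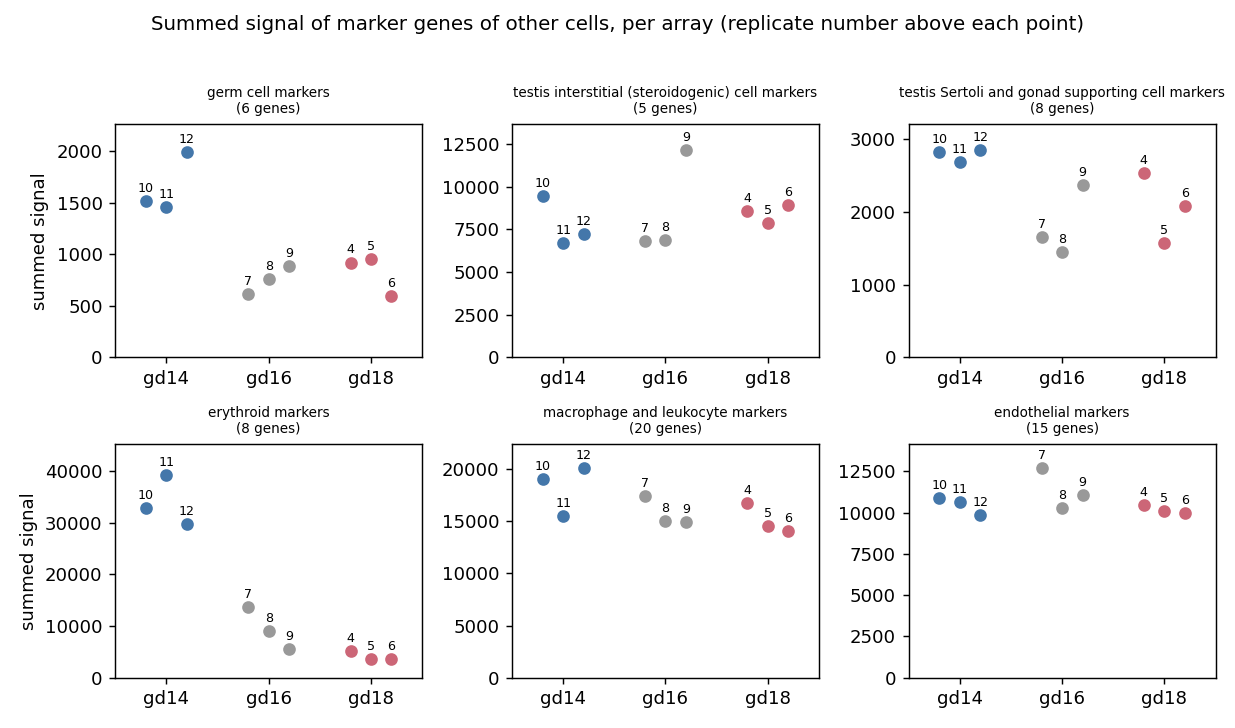
Summed signal of the tested marker genes of 6 other cell types on each array at gd14, gd16 and gd18, with the replicate number above each point and a linear axis from 0. Erythroid and germ cell sums are higher on the 3 gd14 arrays than on the 3 gd18 arrays, the erythroid one through Hbb-y alone. Of the 6 germ cell genes 4 passed the filter on gd14 arrays alone, so nothing is read from their sum. Gd16 replicate 9 is high for steroidogenic testis markers.

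Of 7 tested Müllerian duct markers 2 fell, Amhr2 and Wnt4, a ligand needed for Müllerian duct formation, which had 758, 726 and 859 at gd18 against 2093, 1980.5 and 1830.2 at gd14 and a change of -1.32 ± 0.14 (SE, adjusted p = 6.4e-05). Wnt7a, Lhx1, Dach1, Wnt9b and Emx2 were not called, with changes of 0.03 to 0.45. Among 13 Wolffian and mesonephric transcription factors, Wt1 fell to 987, 801 and 728 at gd18 against 1558, 1705 and 1738 at gd14, and Sall1 changed by -1.52 ± 0.37 (SE, adjusted p = 0.016). Tcf21, a factor of mesenchymal cells, rose, with 4925, 4979 and 5268 at gd18 against 3066, 2651 and 2653 at gd14. Gata3 and Pax8, which act in the early duct, were at 0.54 and -0.10 and were not called. Sall1 passed the filter on gd14 arrays alone and was not tested with a gd14 array left out, and 2 factors rose without gd18 replicate 4. Of 10 genes of GDNF and Ret signalling, the pathway that guides outgrowth of the ureteric bud from the duct, 2 co-receptors fell, Gfra1 at -1.46 and Gfra2 at -0.68. Ret itself did not pass the filter, with no signal above 99.5. These 2 calls were lost without gd14 replicate 10 or 12 or gd18 replicate 6, and 1 of them without gd14 replicate 11 or gd18 replicate 5. For comparison with these lists, 7.35% of all tested genes rose and 4.86% fell.

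Hox genes, which set position along the tract, rose in 6 of 16 tested members and fell in 1. By comparison, 7.35% of all tested genes rose and 4.86% fell. Hoxa10 and Hoxa11, which pattern the reproductive tract, did not overlap between the groups. For both, all gd18 arrays lay above all gd14 arrays, as for 16.4% of all tested genes. Hoxa10 had 2095, 1314 and 1232 at gd18 against 894, 731 and 847 at gd14, a change of 0.86. Hoxa11 had 592, 391 and 394 at gd18 against 231, 189.5 and 223 at gd14, a change of 1.02. Hoxd8, Hoxb6, Hoxd9 and Hoxb5 rose by 0.67 to 0.80. Hoxc5 went the other way, with 1092, 1211 and 1190.0 at gd18 against 2466, 2051 and 2263 at gd14, a change of -0.94 ± 0.11 (SE, adjusted p = 0.00012). The median of the 16 was 0.35. With any array left out 4 to 6 rose and 1 fell, and the lowest rising count under any alternative was 0.

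Smooth muscle contractile genes rose in 11 of 16 tested members and fell in 2, where 7.35% and 4.86% of all tested genes did. Their median log2 change was 1.23, against -0.02 over all tested genes. Acta2, smooth muscle alpha-actin, had 31781, 29772 and 32009 at gd18 against 9862, 6409 and 8849 at gd14. The gd14 arrays already carried a bright signal, and the change was 1.92 ± 0.13 (SE, adjusted p = 1.7e-06). Tagln (transgelin, an actin-binding protein) had 4634, 5309 and 5131 at gd18 against 1846, 975 and 1274 at gd14. Des (desmin, the muscle intermediate filament) had 282, 352 and 294 at gd18 against 118, 106 and 174 at gd14. They changed by 1.91 and 1.15. Myocd, the co-activator of serum response factor that drives smooth muscle genes, had 303, 373 and 248 at gd14, 769.8, 1785 and 1220.5 at gd16 and 1168, 2049.7 and 1658 at gd18. It was already higher at gd16 on every array, and its change over the span was 2.32 ± 0.27 (SE, adjusted p = 0.00014). Srf, serum response factor itself, was not called, at 0.19. Cnn1 had 21.6, 17.9 and 18.9 at gd14, 23.7, 162 and 27.1 at gd16 and 277, 345 and 257 at gd18, so 2 of 3 gd16 arrays were nearly as dim as gd14. Synpo2, Myl9, Tpm2, Mylk and Tpm1 rose by 0.68 to 1.93. The integrin Itga8 fell, with 3579, 3146 and 4770.1 at gd18 against 7805, 8265 and 7494 at gd14, and Cald1 (caldesmon) fell by 0.33, though another of its probe sets was at 0.04. The number that rose was 10 or 11 with any array left out, and the number that fell was 1 without gd18 replicate 4 or 6 or any single gd14 array.

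The CArG box, the site that serum response factor binds (CC, 6 letters of A or T, then GG, which reads as the same pattern on both strands), was looked for in RefSeq promoter sequences of assembly GRCm38.p6, 250 bases before to 50 bases after each gene start. It occurred in 1.81% of 27025 genes with a promoter. Of the 16 smooth muscle genes 12 had a promoter entry and 2 of these held the box, Myl9 and Srf. Myl9, the regulatory light chain of smooth muscle myosin, had 2274, 2561 and 2205 at gd18 against 1043, 646 and 908 at gd14, a change of 1.45 ± 0.16 (SE, adjusted p = 7.5e-05). Its promoter, at chr2:156775214-156775513 (plus strand), is shown because it is the only one of the 8 rising genes with an entry that held the box, here in capitals.
Myl9: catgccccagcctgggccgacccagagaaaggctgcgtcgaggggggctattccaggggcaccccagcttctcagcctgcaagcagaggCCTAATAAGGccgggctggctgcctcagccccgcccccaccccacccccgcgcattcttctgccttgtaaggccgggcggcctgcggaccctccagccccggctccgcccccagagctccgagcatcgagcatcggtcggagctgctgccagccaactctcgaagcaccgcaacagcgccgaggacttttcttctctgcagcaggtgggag

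Many extracellular matrix genes rose. Of 14 interstitial collagen genes 10 rose and 0 fell, against 7.35% and 4.86% of all tested genes, with a median of 0.80. In 13 of the 14 all gd18 arrays lay above all gd14 arrays, as in 16.4% of all tested genes. With any array left out 7 to 12 rose, and the lowest rising count under any alternative was 4. Col6a3, a chain of the beaded-filament collagen, had 17380.0, 15387 and 16055 at gd18 against 7611, 7191 and 7121 at gd14, a change of 1.15 ± 0.09 (SE, adjusted p = 6.4e-06). Col1a1 and Col1a2, the chains of type I collagen, were separate between the groups too. Col1a1 had 10365, 10184 and 8999 at gd18 against 5774, 4767 and 5111 at gd14, a change of 0.92. Col1a2 had 48172, 41354 and 47185 at gd18 against 35332, 32650.0 and 33368 at gd14, a change of 0.43. Col14a1 and Col5a1 rose by 1.13 and 1.01. Col3a1, Col5a3, Col8a1 and Col15a1 were not called, at 0.11 to 0.83.

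Proteoglycans and crosslinking enzymes rose in 11 of 16 members and fell in 0, against 7.35% and 4.86% of all tested genes. Their median was 0.84. With any array left out 10 or 11 rose, and the lowest rising count under any alternative was 5. Lox, the lysyl oxidase that crosslinks collagen and elastin, had 8549, 8869 and 8805 at gd18 against 2317, 1884 and 2066 at gd14, a change of 2.06 ± 0.12 (SE, adjusted p = 4.9e-07). Ogn (osteoglycin) had 6282, 8116 and 6957 at gd18 against 1632, 1484 and 1651 at gd14, a change of 2.15 ± 0.11 (SE, adjusted p = 1.8e-07). Tnc (tenascin C) changed by 1.38, Bgn (biglycan) by 0.84 and Dcn (decorin) by 0.41. Sparc, a collagen-binding protein, rose by 1.05 in its brightest probe set, while a dim probe set of the same gene was at -0.42. Fn1 (fibronectin) and Lum (lumican) were not called, at 0.01 and 0.27.

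Elastic fibre genes rose in 8 of 14 members and fell in 0, where 7.35% and 4.86% of all tested genes did. Their median was 0.50, and with any array left out 6 to 8 rose. Eln, which encodes elastin, had 331, 279 and 407 at gd14, 890.0, 1046 and 697 at gd16 and 1731, 1735 and 1575 at gd18. Every gd16 array lay between the other stages, and the change over the span was 2.27 ± 0.17 (SE, adjusted p = 3.0e-06). Mfap5, a microfibril glycoprotein, had 105, 52.5 and 82.4 at gd14, 79, 106 and 117 at gd16 and 356, 489.7 and 397 at gd18. Its gd16 arrays overlapped those of gd14. It passed the filter on low signals on gd18 arrays alone and was not tested with a gd18 array left out. The change over the span was 2.19, and the 2 intervals were not shown to differ (adjusted p = 0.22). Ltbp4 and Efemp1, both needed for elastic fibre assembly, rose as well. Ltbp4 had 3019, 2776 and 3169.8 at gd18 against 998, 942 and 793 at gd14, a change of 1.70. Efemp1 had 3543, 4123 and 4009 at gd18 against 1312, 1174 and 1208 at gd14, a change of 1.65. Emilin1, Emilin2 and Fbln2 were not called, at -0.09 to 0.04.

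Basement membrane genes rose in 10 of 18 members and fell in 2, against 7.35% and 4.86% of all tested genes. Lama2, the laminin chain of muscle and mesenchyme, had 3758, 3642 and 3858 at gd18 against 1019, 1023 and 977 at gd14, a change of 1.88 ± 0.09 (SE, adjusted p = 1.0e-07). Lama1, the laminin chain of early epithelia, fell, with 529, 400.3 and 421 at gd18 against 658, 751 and 678 at gd14, a change of -0.62 ± 0.14 (SE, adjusted p = 0.014). Col4a1 and Col4a2, the common type IV collagen chains, rose by 0.84 and 0.70, and Col18a1, the source of endostatin, fell by 0.71. Col4a4 had 1400.0, 898 and 628 at gd18 against 212, 428 and 238 at gd14, with wide spread at gd18. Without gd14 replicate 12 or gd18 replicate 6, 6 basement membrane genes rose, and without gd14 replicate 11 or gd18 replicate 5, 1 fell.

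**Figure D3:**
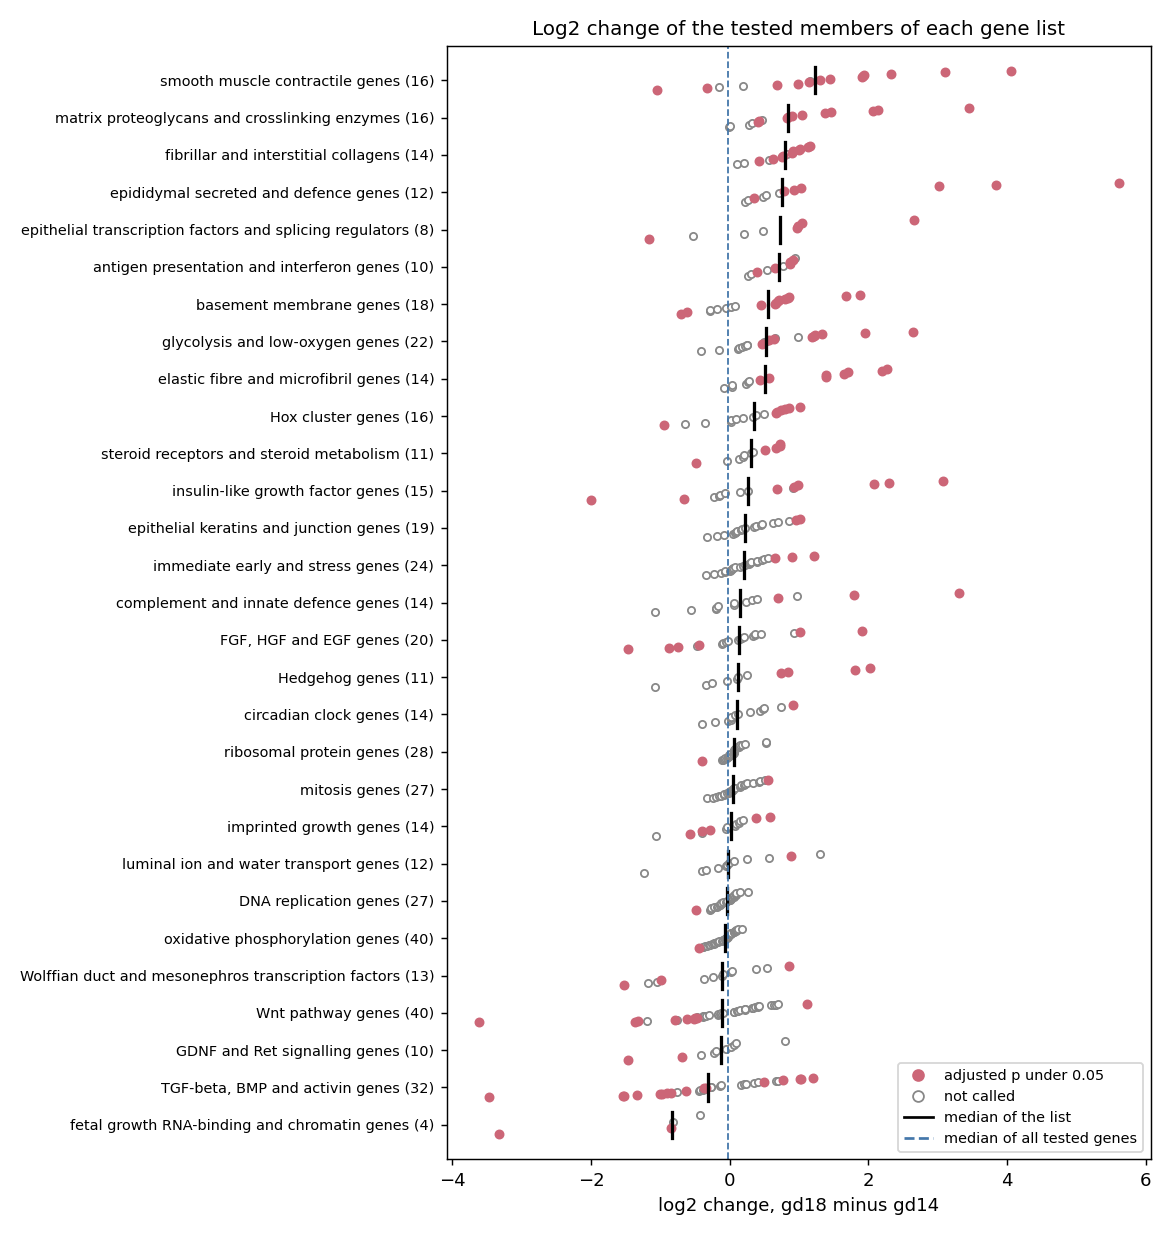
Log2 change (gd18 minus gd14) of each tested member of 29 gene lists, ordered by the list's median, with the number tested in brackets. Filled points passed an adjusted p under 0.05, open points did not, black bars are list medians and the dashed line is the median of all tested genes, -0.02; the smooth muscle list has the highest median, and those of proteoglycans and collagens come next.

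Few genes of epithelial structure were called. Of 19 keratin and junction genes 2 rose, against 7.35% of all tested genes, and 0 fell. Epcam, the epithelial adhesion molecule, had 3173, 3173 and 3450.3 at gd14, 2642, 3954 and 2598 at gd16 and 6178, 6338 and 6485 at gd18. Every gd18 array was above the rest, and the change was 0.95 ± 0.14 (SE, adjusted p = 0.00067). Cldn8, a tight junction claudin, had 1740.0, 2842 and 2606 at gd18 against 970.3, 1256 and 1263 at gd14, a change of 1.01 ± 0.22 (SE, adjusted p = 0.0093). Krt5 and Krt8, keratins of basal and simple epithelium, were not called, at 0.09 and 0.08, nor was the adhesion molecule Cdh1 at 0.16. The list's median was -0.15 for gd16 minus gd14 and 0.47 for gd18 minus gd16.

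Epithelial transcription factors rose in 4 of 8 tested members and fell in 1, against 7.35% and 4.86% of all tested genes. Ehf, an ETS factor of differentiated epithelium, had 91.6, 87.3 and 129.9 at gd14, 190.5, 307 and 229 at gd16 and 747, 712 and 719 at gd18. It was higher at each later stage with no overlap, and changed by 2.66 ± 0.21 (SE, adjusted p = 6.3e-06). Klf5 had 986, 866 and 1412 at gd18 against 529, 586 and 501 at gd14, and Tfcp2l1 had 772, 738 and 656 at gd18 against 337, 429 and 315 at gd14. Esrp1, a splicing regulator of epithelia, rose by 1.05. Grhl1 fell by 1.16, a call lost without any single gd14 array or without gd18 replicate 5 or 6.

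Secreted and defence genes of the epididymis rose in 7 of 12 tested members and fell in 0, against 7.35% and 4.86% of all tested genes. Beside Lcn2 and Defb29, B4galnt2, a glycosyltransferase, had 785, 765 and 569 at gd18 against 64.3, 62.2 and 92.9 at gd14, a change of 3.02 ± 0.25 (SE, adjusted p = 8.2e-06). Clu (clusterin, a secreted chaperone) had 3434, 3645 and 4081 at gd18 against 2681, 1938 and 1902 at gd14, a change of 0.79 ± 0.19 (SE, adjusted p = 0.017), and Cst3, a cysteine protease inhibitor, rose by 0.35. The protease inhibitors Spink8 and Eppin rose by 0.93 and 1.03. Ptgds, Gpx3, Wfdc2, Npc2 and Spink2 were not called, at 0.22 to 0.71. Of the 12 genes Defb29 and Eppin passed the filter on gd18 arrays alone and were not tested with a gd18 array left out. The count was 2 without gd18 replicate 6, 3 without gd14 replicate 11 or 12, and 4 without gd18 replicate 4 or 5.

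Of 12 luminal ion and water transport genes 1 rose (8.33%), near the 7.35% over all tested genes. It was the water channel Aqp1 at 0.89, and the other 11 did not pass the test. That call was lost without gd18 replicate 4 or 6 or any single gd14 array. Slc26a3, a chloride and bicarbonate exchanger, was at 1.30 (adjusted p = 0.10). Cftr, the chloride channel of the duct, did not pass the filter.

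Of 14 complement and innate defence genes 3 rose, Cp, the complement component C2 and Serping1, the C1 inhibitor. C2 had 262, 237 and 272 at gd14, 309, 409 and 329.6 at gd16 and 920.0, 897 and 965 at gd18, a change over the span of 1.79 ± 0.15 (SE, adjusted p = 8.2e-06). Of 10 antigen presentation and interferon genes 5 rose and 0 fell. For comparison with both lists, 7.35% of all tested genes rose and 4.86% fell. Tapbp, which loads peptides on class I molecules, had 977, 998 and 939 at gd18 against 509, 507 and 549 at gd14, a change of 0.88 ± 0.12 (SE, adjusted p = 0.00052). B2m, the light chain of class I molecules, rose by 0.40 and Ifitm3, an antiviral membrane protein, by 0.87. The median of this list was -0.03 for gd16 minus gd14 and 0.80 for gd18 minus gd16. This count was 2 without any single gd14 array or without gd18 replicate 5 or 6, and 3 without gd16 replicate 9. Over the same span 0 of 20 macrophage and leukocyte markers rose.

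Steroid receptor and metabolism genes rose in 4 of 11 tested members and fell in 1, against 7.35% and 4.86% of all tested genes. Esr1, oestrogen receptor alpha, had 4769.8, 4169 and 5001 at gd14, 7188, 8139.5 and 6409.6 at gd16 and 8429, 6229.7 and 8502 at gd18. The gd16 arrays were already in the range of gd18, and the change over the span was 0.72 ± 0.13 (SE, adjusted p = 0.0034). Pgr, the progesterone receptor, had 337, 274 and 264 at gd18 against 208, 172 and 152 at gd14, a change of 0.67 ± 0.20 (SE, adjusted p = 0.047). Ncoa1, a co-activator of steroid receptors, rose by 0.73 and Tsc22d3, a glucocorticoid target, by 0.52, with another of its probe sets at -0.55. Hsd11b2, which inactivates corticosterone, fell by 0.49. Nr3c1, the glucocorticoid receptor, was not called at 0.19. The number that rose was 1 without gd14 replicate 12 or gd18 replicate 6, and 2 without gd14 replicate 11, gd16 replicate 9 or gd18 replicate 5, and the number that fell was 0 without any single gd18 array or gd14 replicate 10 or 11.

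Few cell division genes were called, no larger a share than over all tested genes. Of 27 DNA replication genes 1 fell, the helicase subunit Mcm2 at -0.49, and of 27 mitosis genes 1 rose, the kinase Melk at 0.56. Mki67, the proliferation antigen, had 9464, 9225 and 8159 at gd18 against 7793, 9367 and 8731 at gd14, with overlapping groups and a change of 0.05. The medians were -0.04 and 0.05. In the oxidative phosphorylation list 1 of 40 genes fell, cytochrome c (Cycs) at -0.44, and among ribosomal protein genes 1 of 28 fell, Rpl12 at -0.40. No DNA replication gene fell without gd18 replicate 4 or 6, gd16 replicate 7 or 8 or gd14 replicate 10 or 11. The mitosis count was 2 without gd14 replicate 10. No oxidative phosphorylation gene fell without gd18 replicate 4 or 6 or gd14 replicate 10 or 11, and 2 did without gd16 replicate 7 or 8. No ribosomal protein gene fell without gd18 replicate 4 or 5 or any single gd14 array.

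Fetal growth regulators fell in 2 of 4 tested members, against 4.86% of all tested genes. Besides Hmga2, Igf2bp3, an RNA-binding protein of fetal tissue, had 2080.0, 1786 and 1933 at gd18 against 3559.7, 3151 and 3758 at gd14, a change of -0.85 ± 0.11 (SE, adjusted p = 0.00026). Igf2bp1 was at -0.82 and was not called. Of 14 imprinted growth genes 2 rose and 3 fell, against 7.35% and 4.86% of all tested genes. Igf2, the main fetal growth factor, had 19484, 18605 and 19256 at gd18 against 20389, 21102 and 17712 at gd14, overlapping groups and a change of -0.04. Dlk1 rose by 0.59 in its brightest probe set and was at -0.06 in a dim one. Slc38a4, Igf2r and Peg3 fell by 0.28 to 0.57. The number of imprinted genes that rose was 1 without any single gd18 or gd14 array, and the number that fell was 1 without gd18 replicate 4 or gd14 replicate 10 or 11.

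Of 15 insulin-like growth factor genes 6 rose and 2 fell, against 7.35% and 4.86% of all tested genes. Irs4, an adaptor of insulin and IGF receptors, had 202, 229.9 and 192 at gd14, 987, 1639 and 682 at gd16 and 1458, 1959.9 and 2323 at gd18. The rise was already clear at gd16, and the change over the span was 3.08 ± 0.26 (SE, adjusted p = 9.4e-06). A dim probe set of Irs4 that failed the filter was at -0.19. Igfbp3, a carrier that binds IGFs, fell, with 4824, 5528 and 5112 at gd14, 1991, 1564 and 1669.6 at gd16 and 1204, 1147 and 1506 at gd18. Its gd16 values were nearer to gd18 than to gd14, and the gd18 level was 3.99-fold lower than the gd14 level on the signal + 16 scale (adjusted p = 1.2e-06). Igfbp7 had 2119, 1280.3 and 1498 at gd14, 2161, 2931 and 1871 at gd16 and 6003, 7540.0 and 7025 at gd18, a change of 2.09 ± 0.19 (SE, adjusted p = 1.8e-05). Igfbp6 and Igfbp2 rose by 0.93 and 0.68, and Igfbp5 fell by 0.66. The receptor Igf1r was not called at -0.13, and the number that rose was 5 or 6 with any array left out.

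Wnt pathway genes fell in 8 of 40 members and rose in 1, against 4.86% and 7.35% of all tested genes. Apart from Wif1 and Wnt4, Lef1, a transcription factor of the pathway, had 241, 232 and 257 at gd18 against 581, 897 and 534 at gd14, a change of -1.37 ± 0.19 (SE, adjusted p = 0.00044). Notum, an enzyme that inactivates Wnt ligands, had 275, 333 and 267 at gd18 against 413, 609.7 and 526 at gd14. Nkd1 and Apcdd1, inhibitors of the pathway, and the receptor Fzd2 fell by 0.47 to 0.51. Fzd3 fell by 0.62, with 1 probe set at 0.10. Rspo3, a secreted enhancer of Wnt signalling, rose, with 1772, 1415 and 1983 at gd14, 3463, 4142 and 2975 at gd16 and 3565, 3529.6 and 4025 at gd18. Its gd16 and gd18 arrays overlapped, and the change over the span was 1.11 ± 0.14 (SE, adjusted p = 0.00028). Axin2, a general target of the pathway, was not called at 0.37. The number that fell was 5 without gd14 replicate 10 or 11 or gd18 replicate 4 or 6, and the number that rose was 2 without gd16 replicate 7 or 8.

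TGF-beta, BMP and activin genes fell in 11 of 32 members and rose in 5, against 4.86% and 7.35% of all tested genes. Among targets and inhibitors, Smad6 had 382, 295 and 377 at gd18 against 1240.2, 1133 and 806 at gd14, a change of -1.54 ± 0.18 (SE, adjusted p = 0.00013), and the inhibitors Id2 and Id3 fell by 0.90 and 0.85. Bambi, a decoy receptor, fell by 0.97, and Fst (follistatin, which binds activins) by 1.53. Tgfbi, a matrix protein induced by TGF-beta, had 4744, 4864 and 5251 at gd18 against 12533, 14538 and 10732 at gd14, a change of -1.33 ± 0.12 (SE, adjusted p = 1.9e-05). Among receptors, Acvr2b, Acvr1 and Tgfbr1 fell by 0.34 to 1.01, while Bmpr1b and Tgfbr2 rose by 1.02 and 0.50. Among ligands, Inhba, the activin A subunit, had 5899, 5379 and 6321 at gd18 against 2894, 2908 and 2750.2 at gd14. It was higher on every gd18 array, by 1.03 ± 0.15 (SE, adjusted p = 0.00075). Bmp4 and Inhbb rose by 0.77 and 1.20, and Bmp5 fell by 0.37 in its brightest probe set, with another at 0.54. The number that fell was 6 without gd14 replicate 11 and 7 without gd18 replicate 6.

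Hedgehog genes rose in 4 of 11 members and fell in 0, against 7.35% and 4.86% of all tested genes. Shh, the epithelial ligand, had 666, 888 and 717 at gd14, 1205, 2089 and 1657 at gd16 and 2669.6, 4575 and 2424 at gd18. The stages did not overlap, and the change over the span was 2.02 ± 0.24 (SE, adjusted p = 0.00013). Ptch1, its receptor and a target of the pathway, had 11173, 15684 and 12437 at gd18 against 7422, 8488 and 7492 at gd14, a change of 0.73 ± 0.13 (SE, adjusted p = 0.0023). Hhip, which binds Hedgehog ligands, had 809.6, 1131 and 660.3 at gd18 against 232, 252 and 210.5 at gd14, a level 3.49 times as high (adjusted p = 0.0010), and Cdon, a co-receptor, rose by 0.85. Gli1, the usual target gene, was not called at 0.25. The Hedgehog count was 4 with any array left out.

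Of 20 FGF, HGF and EGF genes 2 rose and 4 fell, against 7.35% and 4.86% of all tested genes. Fgf7, a mesenchymal ligand for epithelial receptors, had 209, 271 and 276 at gd18 against 37.4, 97.1 and 43.5 at gd14, a change of 1.90 ± 0.32 (SE, adjusted p = 0.0017). Met, the receptor of hepatocyte growth factor, had 1474, 1659.6 and 1833 at gd18 against 700.0, 1048 and 723 at gd14. Hgf, its ligand, had 112 to 133 at gd18 against 324, 534 and 297 at gd14. Their changes were opposite, 1.01 ± 0.19 (SE, adjusted p = 0.0036) for Met and -1.46 ± 0.25 (SE, adjusted p = 0.0020) for Hgf. Dim probe sets of Hgf that failed the filter were at 0.38 and 0.40. Fgf9, Fgfr3 and Pdgfrb fell by 0.44 to 0.88. The number that fell was 2 without gd14 replicate 10 or 11 or gd18 replicate 6.

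Glycolysis and low-oxygen genes rose in 9 of 22 tested members and fell in 0, against 7.35% and 4.86% of all tested genes. Their median was 0.52. Ndrg1, a gene induced in low oxygen, had 4722, 3832 and 5940.0 at gd18 against 1317, 1262 and 1095 at gd14, a change of 1.95 ± 0.19 (SE, adjusted p = 2.7e-05). Bnip3, a mitophagy receptor, had 2668, 2436 and 2717 at gd14, 3616, 4153 and 2071 at gd16 and 6379.6, 4639.6 and 7574 at gd18. Egln3, an oxygen-sensing prolyl hydroxylase, had 230.3, 250.3 and 301 at gd14, 372, 456 and 269.8 at gd16 and 533, 600.4 and 972 at gd18. They changed by 1.22 ± 0.22 (SE, adjusted p = 0.0034) and 1.34 ± 0.24 (SE, adjusted p = 0.0027). Ankrd37 had 475, 447 and 750.0 at gd18 against 224, 269 and 197 at gd14 and a change of 1.19 ± 0.23 (SE, adjusted p = 0.0043). Pdk1, a kinase that limits pyruvate oxidation, had 2778, 2351 and 1877 at gd18 against 716, 745 and 1698 at gd14, with 1 high gd14 array. Gd18 replicate 6 was the highest gd18 array for Adm, Ndrg1, Egln3, Bnip3, Ankrd37, Aldoa and Tpi1, 7 of the 9, and without it 7 genes rose. With any array left out the number was 6 to 10. The glycolytic enzymes Aldoa, Tpi1 and Ldha rose by 0.47 to 0.64, and the glucose transporter Slc2a1 and the growth factor Vegfa were not called, at 0.50 and -0.15. How long the organs waited before freezing is unknown here.

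The core of the hypoxia response element, ACGTG, which reads CACGT on the other strand, was looked for in the same promoter windows. It occurred in 21.8% of 27025 genes with a promoter, and in 15 of the 20 low-oxygen and glycolysis genes with an entry. Of the 9 that rose 8 had an entry and 5 held the core (62.5%), against 75% of all 20 with an entry. Adm, Pdk1 and Tpi1 rose without the core in their window. Hk1, Hk2, Pgk1, Pkm, Slc2a1 and Vegfa held it and were not called. A link between the core and the rise was not tested. Bnip3, Egln3 and Ankrd37 are shown because they rose by over 2-fold and hold the core (capitals, the overlapping palindrome CACGTG in Bnip3). Their windows are chr7:138909457-138909756 (minus strand), chr12:54203825-54204124 (minus strand) and chr8:45999801-46000100 (minus strand). A match is a description of the letters and not a measured site.
Bnip3: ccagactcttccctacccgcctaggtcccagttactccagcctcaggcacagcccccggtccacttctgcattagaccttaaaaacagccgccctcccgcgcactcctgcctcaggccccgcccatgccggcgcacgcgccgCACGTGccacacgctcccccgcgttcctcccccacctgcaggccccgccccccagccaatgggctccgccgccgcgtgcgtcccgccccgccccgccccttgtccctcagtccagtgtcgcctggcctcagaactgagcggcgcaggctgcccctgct
Egln3: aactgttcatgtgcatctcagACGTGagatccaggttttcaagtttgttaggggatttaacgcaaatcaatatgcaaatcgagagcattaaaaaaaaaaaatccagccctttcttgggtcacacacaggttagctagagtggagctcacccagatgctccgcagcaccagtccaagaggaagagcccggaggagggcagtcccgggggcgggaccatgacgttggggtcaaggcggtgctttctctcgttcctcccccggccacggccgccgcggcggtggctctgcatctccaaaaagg
Ankrd37: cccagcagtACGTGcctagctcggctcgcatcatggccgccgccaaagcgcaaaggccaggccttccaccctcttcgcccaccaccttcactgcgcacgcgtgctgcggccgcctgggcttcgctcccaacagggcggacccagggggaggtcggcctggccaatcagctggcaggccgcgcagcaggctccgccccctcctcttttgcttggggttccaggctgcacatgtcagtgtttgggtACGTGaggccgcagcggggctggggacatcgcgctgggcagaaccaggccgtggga

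Among immediate early and stress genes 3 of 24 rose (12.5%), against 7.35% of all tested genes. The count was 2 or 3 with any array left out. Fos had 721, 475 and 962 at gd18 against 220.0, 376 and 290.3 at gd14 and Klf4 had 789, 916 and 751 at gd18 against 518, 419 and 367 at gd14, with changes of 1.21 and 0.90, and the phosphatase Dusp1 rose by 0.65. Egr1 and Jun were not called, at -0.07 and -0.34. Of 14 clock genes 1 rose (7.14%), near the share over all tested genes. It was Bhlhe40, a repressor that also responds to low oxygen, with 1097, 696 and 1119 at gd18 against 440.0, 548 and 505 at gd14.

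Mesothelial markers, which the outer covering of the organ expresses, rose in 5 of 12 genes and fell in 1. The gene that fell was Wt1, at -0.99. By comparison, 7.35% of all tested genes rose and 4.86% fell. Msln (mesothelin) had 89.8, 41.9 and 35.4 at gd14, 155, 84.5 and 156 at gd16 and 321, 333 and 425 at gd18, a change of 2.45 ± 0.34 (SE, adjusted p = 0.00043), and Upk3b and Gpm6a rose by 0.68 and 0.86. The summed signal of the 12 was 17020 to 20324 at gd18 and 15745 to 16589 at gd14. The count was 2 without gd14 replicate 10 or gd18 replicate 6, and 3 without gd18 replicate 4. Skeletal muscle markers rose in 1 of 3 tested genes, Tnnt1, and 14 others, Myog and Ckm among them, did not pass the filter. None of 3 nephron markers and 5 adipocyte markers was called. Of 7 nerve and Schwann cell markers the neurofilament gene Nefm fell by 0.97, a call lost without gd18 replicate 5 or any single gd14 array.

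To ask when the changes took place, the 2 intervals were set against each other. Against gd14, 294 genes had changed by gd16 (2.57% of those tested), 194 higher and 100 lower. From gd16 to gd18, 428 genes changed (3.74%), 303 higher and 125 lower. The count by gd16 was 147 to 164 without any single gd14 array, 196 without gd16 replicate 7 and 194 without gd16 replicate 8. The later count was 149 without gd16 replicate 9 and 203 to 231 without any single gd18 array. The test of the difference between the intervals found 30 genes (0.262%), of which 19 also changed over the whole span, 12 more in the later interval and 7 more in the earlier. Without gd16 replicate 9 the count was 9, without gd14 replicate 10 or 12 it was 17, without gd14 replicate 11 or gd16 replicate 7 it was 19, and without gd16 replicate 9 and gd14 replicate 10 together it was 0. At an unadjusted p under 0.05, 1339 genes differed between intervals. For the other called genes the arrays did not show the intervals to differ.

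Among genes with the larger change by gd16, Igf1, the growth factor, had 3289, 3943 and 3965 at gd14, 8473, 7927 and 8396 at gd16 and 7354, 6759.7 and 8009 at gd18. Its mean was highest at gd16, and the difference between intervals, later minus earlier, was -1.32 ± 0.17 (SE, adjusted p = 0.0098). Gas6, a ligand of TAM receptors, had 1166, 798 and 966 at gd14, 2345, 2297 and 2275 at gd16 and 2252, 1862 and 1876 at gd18. Smoc2, a matrix-associated calcium-binding protein, had 2973, 2574 and 3046 at gd14, 7059, 6321 and 6318 at gd16 and 8126, 7789.5 and 7757 at gd18. From gd16 on, all Gas6 arrays were lower and all Smoc2 arrays higher, by less than in the earlier interval, with differences of -1.45 and -0.93. Grm7, a glutamate receptor gene, had 549.8, 441 and 607 at gd14, 1244, 1362 and 1144 at gd16 and 815, 737 and 900.2 at gd18, highest at gd16, and its change over the span lost its call without gd18 replicate 6 or gd14 replicate 11. B3gnt9, a glycosyltransferase, had 967, 884 and 958 at gd14, 2106, 1982 and 1659 at gd16 and 1512, 1583 and 1602 at gd18. The protease gene Prss23 fell, with 3359, 4661 and 4342 at gd14, 1502, 1286 and 1382 at gd16 and 2134, 2514 and 1494 at gd18. Ednrb, the endothelin B receptor, fell too, with 3012, 2840.5 and 2761 at gd14, 1644, 1109 and 1402 at gd16 and 2043, 1783 and 1566 at gd18. The means of both were lowest at gd16, where the arrays overlapped those of gd18.

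Among genes with the larger change after gd16, Adm, which encodes the vasoactive peptide adrenomedullin, had 513, 297 and 476 at gd14, 457, 336 and 315 at gd16 and 2788, 2008 and 3538 at gd18. The gd16 arrays overlapped those of gd14, every gd18 array was far above both, and the later interval differed from the earlier by 3.03 ± 0.41 (SE, adjusted p = 0.0098). Socs2, which damps growth hormone and cytokine signalling, had 251, 185 and 230.4 at gd14, 222, 193 and 261 at gd16 and 1036, 1215 and 1198 at gd18, a difference of 2.26 ± 0.29 (SE, adjusted p = 0.0098). Ccn2, a matricellular protein, dipped at gd16, with 1472, 1089 and 1162 at gd14, 911, 750.2 and 821 at gd16 and 1843, 1795 and 2066 at gd18. Eps8, an actin regulator, had 376, 375 and 436 at gd14, 329.5, 382 and 236 at gd16 and 1128, 908 and 1033 at gd18. Cdcp1, a transmembrane protein of epithelial cells, had 419, 413 and 314 at gd14, 234, 303 and 213 at gd16 and 699, 798 and 702 at gd18. Smim22 had 645, 710.5 and 658 at gd14, 316, 522 and 538 at gd16 and 1574, 1167 and 1409 at gd18. The means of Ccn2, Eps8, Cdcp1 and Smim22 were lowest at gd16 and highest at gd18. Edil3, an integrin ligand of the matrix, fell late, with 497, 524 and 417 at gd14, 509, 391 and 437 at gd16 and 125, 80.2 and 99 at gd18. Map2, a microtubule protein, did so too, with 545, 587 and 707 at gd14, 731, 677 and 728 at gd16 and 332, 259 and 316 at gd18. The other late genes were Anxa4, S100a10, Fmod and Ndufa12, chosen here because they complete the 12. The epithelial keratin and junction list was also lower at gd16 than at gd14 and higher at gd18 than at gd16 in its medians (-0.15 and 0.47), and its part in these late changes was not tested.

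**Figure D4:**
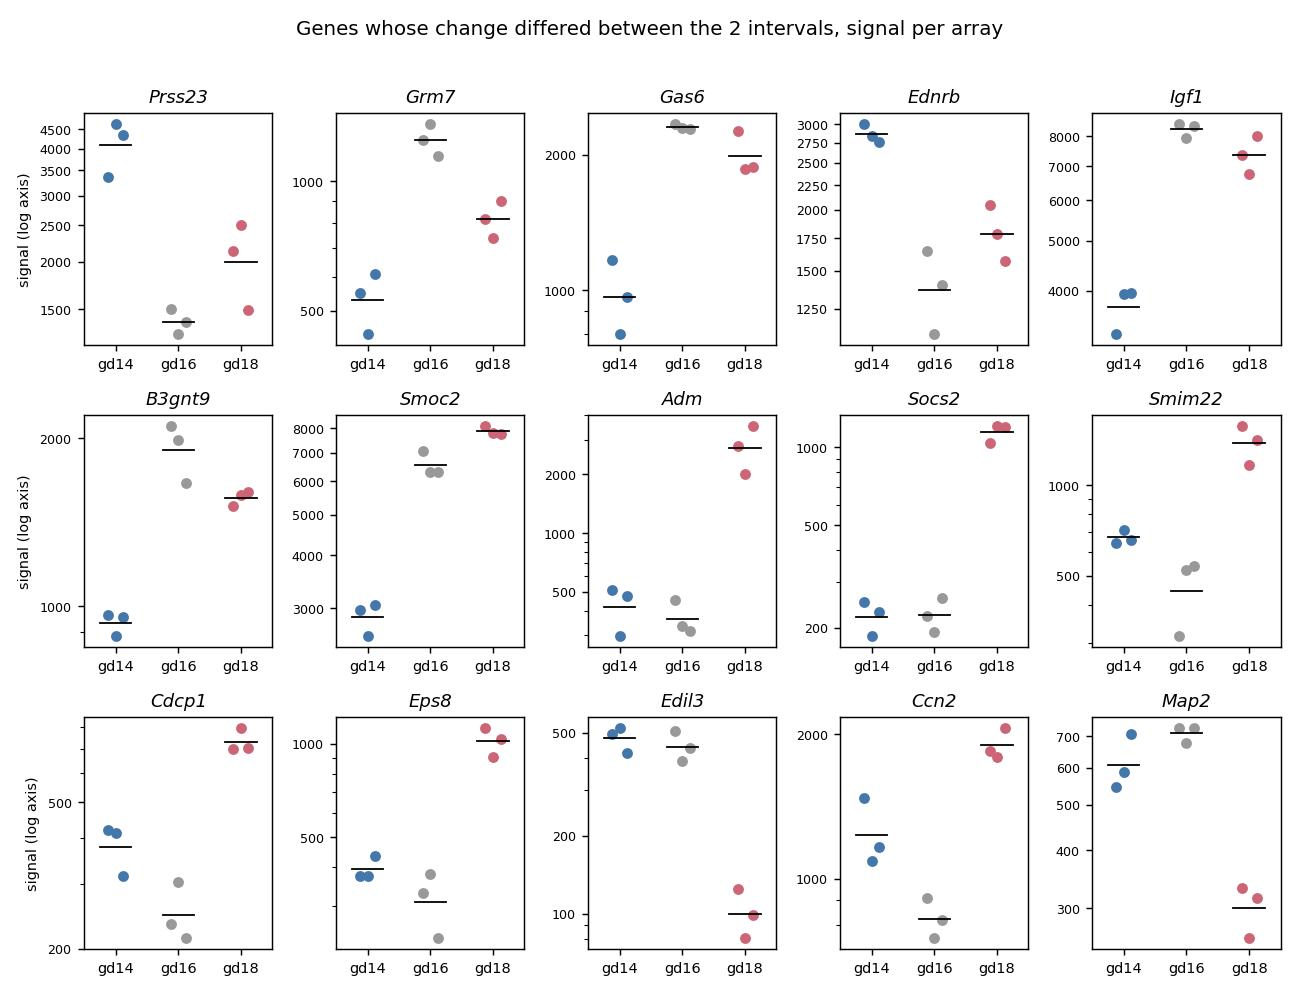
Signal per array (log axis) at gd14, gd16 and gd18 for the 7 named genes that changed more before gd16 (Prss23 to Smoc2) and the 8 that changed more after it (Adm to Map2). Points are arrays, 3 per stage, and lines are means on the log2(signal + 16) scale; Igf1 and Gas6 reach their highest mean at gd16, and the gd14 and gd16 points of Adm and Socs2 overlap.

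**Figure D5:**
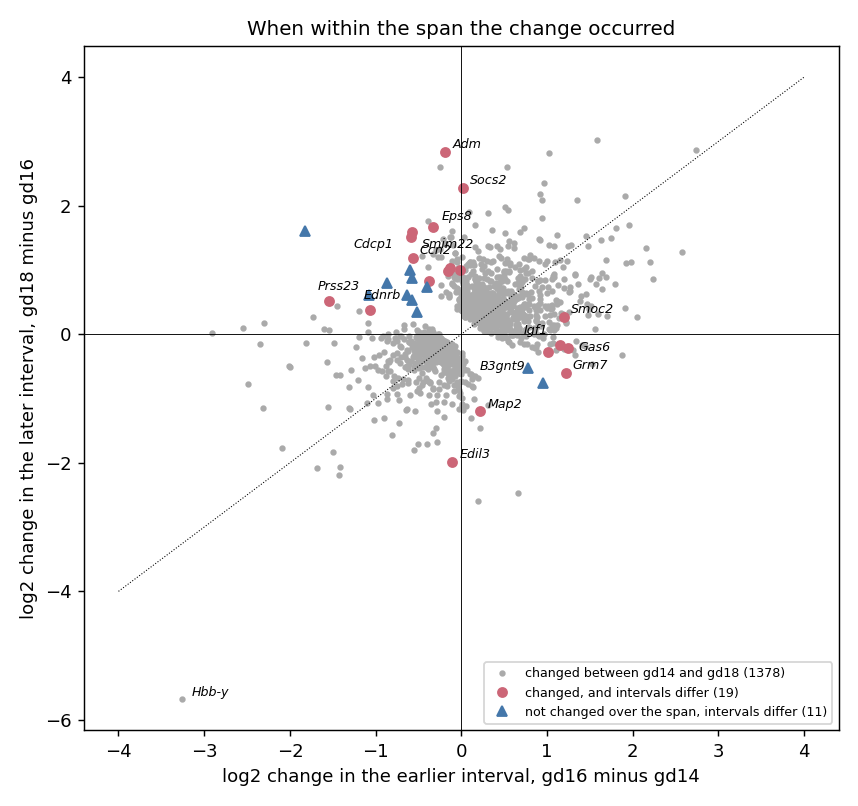
Log2 change from gd14 to gd16 (horizontal) against log2 change from gd16 to gd18 (vertical) for the 1397 genes that changed over the span, with the 19 whose intervals differed and 11 more that differed without a change over the span marked. Both axes use the same gd16 arrays, so no relation between them is read from the plot; the dotted line marks equal change in both intervals.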

How the data were processed

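Each probe set has an intensity (the signal) on every array, in linear units, which the authors made with GCOS, the Affymetrix software, per the submitters' processing notes, with no version given. Trimmed of 2% of values at both ends, the arrays averaged 499.9 to 500.0, as a scaling of whole arrays leaves them. Detection calls were not used here, and the number of arrays limits the precision. Of 45101 probe sets 34945 had 1 gene symbol, 932 several and 9160 none, beside 64 controls. Values were taken as log2(signal + 16), and 15.2% to 16.7% of signals per array lay below 16, where folds depend on that constant. Probe sets had to reach the median of their own array on 3 or more of the 9 arrays, and the brightest per gene was used, which gave 11441 of 18194 genes. Of these 27 passed on gd18 arrays alone (14 called) and 31 on gd14 arrays alone (18 called). The model was fitted with limma 3.58.1 in R 4.3.3 (lmFit, eBayes with intensity trend) on the 9 arrays, with Benjamini-Hochberg adjustment over all genes in each contrast. On simulated data with 11441 genes and gd18 against gd14, 76 of 100 genes changed by 1 on the log2 scale were recovered and 92 of 100 changed by 2. There were 13 false calls. The simulation changed far fewer genes than the 1397 called in the data and placed gd16 midway, so its recovery need not carry over.

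The named genes were the 15 largest rises and falls that passed the test, had no overlap between the stages' arrays, were at or above the mean array median in the higher stage and had a gene name, up to 8 timing genes each way by the same rule, and list members that were called or define their list. The stages, the members and the 41 gene lists (602 distinct tested genes) were chosen with earlier results of these data known. Alternatives covered normalization, the constant, filters, probe set choice, the arrays in the fit, moderation, call rules and leaving out each array. Of 94 checked genes with several probe sets that passed the filter, 6 had such probe sets of opposite sign. Probe sets that failed the filter were not counted, and some had the opposite sign, as for Hgf, Rbfox3 and Edil3. P-values measure the spread between these samples. Figures were drawn with matplotlib 3.10.9.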

Additional observations from a re-analysis of the deposited data

How the results depend on the processing

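No direction reversed in the 1081 values of the 45 named genes under alternatives. Of them 31 genes were called under every alternative that gave a value, and 41 with any array left out, where tested. Normalization, the added constant, the filters, the choice of probe set and array weights kept the gd18 against gd14 count at 1164 to 1556, and centring on medians gave 739 higher and 563 lower. The arrays in the fit mattered more. With all 15 epididymis arrays, 325 genes changed between gd14 and gd18 (223 higher, 102 lower), 12 from gd14 to gd16, 39 from gd16 to gd18 and 0 between intervals. With 14 arrays, without postnatal day 2 replicate 3, the counts were 1086, 132, 221 and 0. With only the 2 stages compared, 250 genes changed from gd16 to gd18. Without the intensity trend, 162 changed by gd16, 191 after it and 0 differed between intervals. At an adjusted p under 0.01 the counts were 679 (476 higher, 203 lower), 99, 103 and 7. At 2-fold or more they were 459 (324 and 135), 115 and 154. The share of calls that were higher was 60.2%, 70.1% at the stricter p and 70.6% at 2-fold. Leaving out 1 array gave 882 to 1472 changed genes over the span, lowest without gd14 replicate 11 and 928 without gd14 replicate 10, with 609 to 880 higher and 273 to 592 lower. The lower count was 290 without gd14 replicate 10, 273 without replicate 11 and 325 without replicate 12. The counts were 147 to 306 by gd16, 149 to 393 after it and 9 to 40 between intervals, the last lowest without gd16 replicate 9. Without gd14 replicate 10 and gd16 replicate 9, chosen after seeing the data, the counts were 877 (257 lower), 118, 120 and 0. The cause of these shifts was not tested, and leaving out an array also leaves fewer samples in the fit. No paired analysis was possible because the stages share no replicate numbers. With 3 arrays a stage many changes of 1 on the log2 scale or less can be missed, and signals near background give only rough folds.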

Other observations

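A further set of 11 genes differed between the 2 intervals without a called change over the whole span. Their gd16 arrays lay to 1 side of both other stages. Lower at gd16 were Cdkn1a, an inhibitor of cyclin-dependent kinases, with 1625, 1834 and 1427 at gd14, 732, 797 and 756 at gd16 and 946, 1332 and 1289.9 at gd18, and Cdh16, a cadherin of kidney and duct epithelium, with 3492, 3468 and 2766 at gd14, 2101, 2429 and 1885 at gd16 and 4574, 4025 and 4169 at gd18. Hmgcs1, an early enzyme of cholesterol synthesis, had 16406, 16416 and 20153 at gd14, 11450.0, 13467 and 15360.0 at gd16 and 22535, 20627 and 23119 at gd18, and Gstm1, a glutathione transferase, had 1508, 1384 and 1416 at gd14, 1018, 994 and 872 at gd16 and 2007, 1463 and 1869.8 at gd18. Cyb5r3, Mrpl11, Api5, Gm2137 and Mm2pr were also lower at gd16. Higher at gd16 were Aldh1a2, which makes retinoic acid, with 5544, 5195 and 5705 at gd14, 9810.1, 8965 and 9460.4 at gd16 and 6660.3, 5849.8 and 7247 at gd18, and Thumpd1, with 1022, 986 and 1052 at gd14, 2019.5, 2197 and 1749.7 at gd16 and 1276, 1042 and 1165 at gd18. For Aldh1a2 the 3 gd16 arrays were above all 6 others, and the difference between intervals was -1.30 ± 0.16 (SE, adjusted p = 0.0098). Which of these 11 are described in full was chosen after their values were seen.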
